A study of Homo sapiens with 8 samples.

Results

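The genes described here are HLA-B, HLA-C, HLA-E, HLA-F, HLA-G, B2M, TAP1 and TAP2, which encode MHC class I heavy chains, the light chain they pair with, and the transporter that brings them peptides. A probe set was taken as a member if the array's annotation gave it exactly 1 gene symbol and that symbol was among these 8. This gave 7 probe sets of the 8746 that are not array controls, 1 for each gene except TAP1, which was not analysed here, and thus 7 of 7713 genes named by probe sets with 1 symbol. All 7 lay in the tested range, meaning above the 40th percentile of their own array on at least 2 arrays, although HLA-F did so on only 6 of 8 arrays. RNA came from a pair of breast cancer lines, ZR75-1, labelled as having the estrogen receptor, and SKBR3, labelled as lacking it. Each line was given, 24 h after seeding, either a plasmid carrying HSD17B14, an enzyme that oxidises estradiol to estrone, or the same amount of the vector without that insert, and was harvested 48 h later. The 4 groups, with 2 Affymetrix arrays each, are thus ZR75-1 with HSD17B14, ZR75-1 with vector, SKBR3 with HSD17B14 and SKBR3 with vector. The medium, free of phenol red, held 4% serum in every group, and all cells received the transfection reagent FuGene-6. A transient transfection reaches only some cells of a culture, so a change in the cells that took up plasmid is diluted in the bulk RNA, and a change in the number of responding cells cannot be told apart from a change in RNA per cell. Since no label tells whether the duplicates came from separate cultures, the p-values reflect array-to-array spread that may be technical.

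Class I molecules show peptides from inside the cell to CD8 T cells and to natural killer cells. The proteasome cuts proteins to peptides, the TAP1 and TAP2 subunits carry these into the endoplasmic reticulum, tapasin and chaperones load them onto a heavy chain held by beta-2 microglobulin, the B2M product, and the complex moves to the cell surface. HLA-B and HLA-C are classical, highly variable heavy chains, while HLA-E, HLA-F and HLA-G vary little, and HLA-E presents mainly leader peptides of other class I chains to natural killer receptors. Interferons raise most of these genes in epithelial cells through ISGF3, IRF1 and NLRC5, and many tumours lose part of the pathway.

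The promoters of 6 of the 7 measured genes matched an entry of the RefSeq promoter set on GRCh38.p14, each running from 250 bases before to 50 bases after an annotated start. The windows printed here belong to the heavy chains that passed the test in SKBR3-labelled cells (HLA-C, HLA-B and HLA-G) and, beside them, to B2M and TAP2, which did not. They are written 5′ to 3′ on the gene's strand. Capitals mark letters of the interferon-stimulated response element (ISRE), searched on both strands in a strict form (GAAA, any 2 bases, GAAA) and a relaxed form (AANNGAAA) that every strict match contains. For HLA-G, which has 3 entries, the window that lines up with the other heavy chains is shown.
HLA-C promoter, chr6:31272043-31272342, minus strand: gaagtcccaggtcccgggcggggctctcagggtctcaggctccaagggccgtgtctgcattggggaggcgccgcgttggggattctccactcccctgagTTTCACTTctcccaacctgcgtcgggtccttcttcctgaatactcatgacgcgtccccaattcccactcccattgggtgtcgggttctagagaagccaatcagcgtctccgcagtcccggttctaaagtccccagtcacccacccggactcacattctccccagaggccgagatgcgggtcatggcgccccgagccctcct
HLA-B promoter, chr6:31357130-31357429, minus strand: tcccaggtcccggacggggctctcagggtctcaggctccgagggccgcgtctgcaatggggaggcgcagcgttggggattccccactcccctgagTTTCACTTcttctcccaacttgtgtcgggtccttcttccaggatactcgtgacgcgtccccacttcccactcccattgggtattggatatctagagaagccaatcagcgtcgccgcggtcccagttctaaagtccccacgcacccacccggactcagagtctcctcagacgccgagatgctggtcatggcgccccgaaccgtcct
HLA-G promoter, chr6:29827575-29827874, plus strand: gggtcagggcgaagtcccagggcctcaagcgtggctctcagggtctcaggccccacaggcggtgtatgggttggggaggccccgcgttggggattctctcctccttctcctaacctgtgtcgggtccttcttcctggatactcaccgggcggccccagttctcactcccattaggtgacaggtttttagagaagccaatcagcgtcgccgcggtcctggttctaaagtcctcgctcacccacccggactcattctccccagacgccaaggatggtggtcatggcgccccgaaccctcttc
B2M promoter, chr15:44711267-44711566, plus strand: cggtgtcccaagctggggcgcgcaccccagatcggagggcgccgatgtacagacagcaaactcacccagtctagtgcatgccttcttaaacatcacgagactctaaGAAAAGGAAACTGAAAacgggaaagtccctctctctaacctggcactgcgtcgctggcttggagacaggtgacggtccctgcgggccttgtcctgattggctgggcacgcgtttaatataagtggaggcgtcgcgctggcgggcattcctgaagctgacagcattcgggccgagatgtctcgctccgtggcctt
TAP2 promoter, chr6:32838690-32838989, minus strand: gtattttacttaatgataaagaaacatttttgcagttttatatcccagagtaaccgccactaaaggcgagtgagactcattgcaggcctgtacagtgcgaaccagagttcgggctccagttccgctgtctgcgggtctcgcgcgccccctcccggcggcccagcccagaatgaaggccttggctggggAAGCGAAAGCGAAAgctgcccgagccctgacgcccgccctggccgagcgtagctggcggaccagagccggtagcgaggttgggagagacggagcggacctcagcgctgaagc

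HLA-B and HLA-C carried the same relaxed ISRE match, TTTCACTT on the gene's strand, at -155 to -148 and at -151 to -144 from the start. The strict form was found in 3 genes: HLA-F at -156 to -147, B2M at -144 to -135 and again, overlapping, at -138 to -129, and TAP2 at -58 to -49. None of the HLA-G windows held these letters. Of 35116 promoter windows of this length in the set, 3.57% held the strict and 22.8% the relaxed form, against 3 and 5 of the 6 genes here. The letters TTCNNNGAA of the gamma-activated site, which STAT dimers bind, were in none of the 6 genes and in 7.66% of all windows. The NF-kB consensus was in HLA-B, HLA-C, HLA-G and B2M, and in 11.3% of all windows. The HLA-B and HLA-C windows were identical at 88.5% of aligned positions, and the HLA-G window shown was identical to them at 74.5% (HLA-B) and 79.0% (HLA-C). A match is a description of letters and was not tested for binding.

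The targeted gene followed its labels. HSD17B14 read 107.5 and 135.3 on ZR75-1 arrays with its plasmid, against 17.8 and 2.1 with vector (limma adjusted p = 0.0296). It read 650.7 and 743.6 on SKBR3 arrays with the plasmid, against 2 and 4.2 with vector (limma adjusted p = 0.000142). The vector values of both lines lie near or below the 40th percentile of their arrays, so no size of change is given. The line label SKBR3 went against its best known marker, ERBB2, which is amplified in that line. ERBB2 read 95.9 to 226 on the 4 ZR75-1 arrays and only 25.9 to 46.8 on the 4 SKBR3 arrays. Those SKBR3 arrays are therefore called SKBR3-labelled from here on. Of the other listed genes of that amplicon, GRB7 read 8.9 to 67.7 on ZR75-1 arrays and 4.1 to 14.9 on SKBR3-labelled arrays. STARD3 read 24.8 to 30.3 and 27.5 to 36.4, with overlap. ESR1, the estrogen receptor, read 194.5 to 341.6 on ZR75-1 arrays and 14.9 to 24.6 on SKBR3-labelled arrays, in the order of the labelled receptor status. From the same marker list, GATA3 read 1220.8 to 1638.8 and 284 to 416.4, and PGR 2.6 to 22.8 and 0.4 to 2.5. TFF1 read 1874.1 to 2767.7 on ZR75-1 arrays, but still 962.4 to 1073.3 on the arrays labelled as lacking the receptor. The leukocyte markers were low throughout: 3 of 5 listed were on the table, and 2 of these stayed under 17.6 (the highest 40th percentile of any array) on every array. Their summed signals ran from 12.7 to 37.3 in ZR75-1 with HSD17B14, 30.5 to 42.5 in ZR75-1 with vector, 14.7 to 20.3 in SKBR3-labelled cells with HSD17B14 and 8.1 to 28.8 in SKBR3-labelled cells with vector. Bacterial spike-in controls were high on replicate 2 of ZR75-1 with HSD17B14 and on replicate 2 of both SKBR3-labelled groups. The actin 3′/5′ signal ratio, a sign of RNA integrity, ran from 2.02 to 3.6. The same ratio for GAPDH ran from 0.812 to 1.084.

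In SKBR3-labelled cells, HLA-C, HLA-B and HLA-G rose with the HSD17B14 plasmid, between 2.11-fold and 2.96-fold, while HLA-E, HLA-F, B2M and TAP2 did not pass the test. The values are MAS5 signals on a linear scale, which carry no unit, and a call is a Benjamini-Hochberg adjusted p under 0.05 in limma over all 6251 tested probe sets. These 3 of 7 members were higher by that rule, against 0.944% of all tested probe sets called higher and 0.048% called lower in this comparison. Their probe sets can bind related transcripts, as described below, so here and in later counts they may not be separate results. The members were also chosen with earlier results of these data known, so the shares are given as a description.

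HLA-C read 1849.5 and 2068.4 with HSD17B14, against 594.5 and 735.1 with vector. Both plasmid arrays lay far above both vector arrays, and the log2 change was 1.56 ± 0.15 (SE), a 2.96-fold rise (limma adjusted p = 0.000129). It was the largest of the changes called among the members.

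HLA-B read 1859.2 and 1674.6 with HSD17B14, against 869 and 803.8 with vector. The groups were again well apart, with a log2 change of 1.08 ± 0.14, or 2.11-fold (limma adjusted p = 0.00128). HLA-G, whose protein is best known from the placenta, read 955.3 and 950.3 with HSD17B14, against 443.9 and 367 with vector. The 2 plasmid arrays nearly coincided and the log2 change was 1.24 ± 0.21, or 2.36-fold (limma adjusted p = 0.0129). Probe sets with the suffix _x_at hold probes that can also bind related transcripts, and the class I heavy chains are near copies of each other, so the signals of the HLA-B, HLA-C and HLA-G probe sets cannot be assigned to 1 gene each.

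The other members lay higher with the plasmid on both arrays but did not pass the test. HLA-E read 293.2 and 274.7 with HSD17B14, against 181.9 and 161.6 with vector, a log2 change of 0.73 ± 0.17 (limma adjusted p = 0.0874, or 0.0433 where 32 was added to every signal before taking logs). HLA-F read 20.7 and 18.9 with HSD17B14, against 4.6 and 13.5 with vector, all close to or below the array's 40th percentile. Its log2 change of 1.33 ± 0.72 (limma adjusted p = 0.675) had a wide 95% interval, -0.25 to 2.91.

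B2M, the light chain that every class I heavy chain needs, read 2454.5 and 3172.2 with HSD17B14, against 2166.9 and 2422.3 with vector. The lower plasmid array was barely above the higher vector array, and the log2 change was 0.28 ± 0.16 (limma adjusted p = 0.7), with an interval of -0.07 to 0.64, and ran from 0.10 to 0.47 with 1 array left out. TAP2 read 66.1 and 84 with HSD17B14, against 53.7 and 54.2 with vector, a log2 change of 0.47 ± 0.24 (limma adjusted p = 0.621). All 7 members were thus higher without overlap of the arrays, as were 19.5% of all tested probe sets, and the median log2 change of the members was 1.08, against -0.011 over all tested probe sets.

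**Figure D1:**
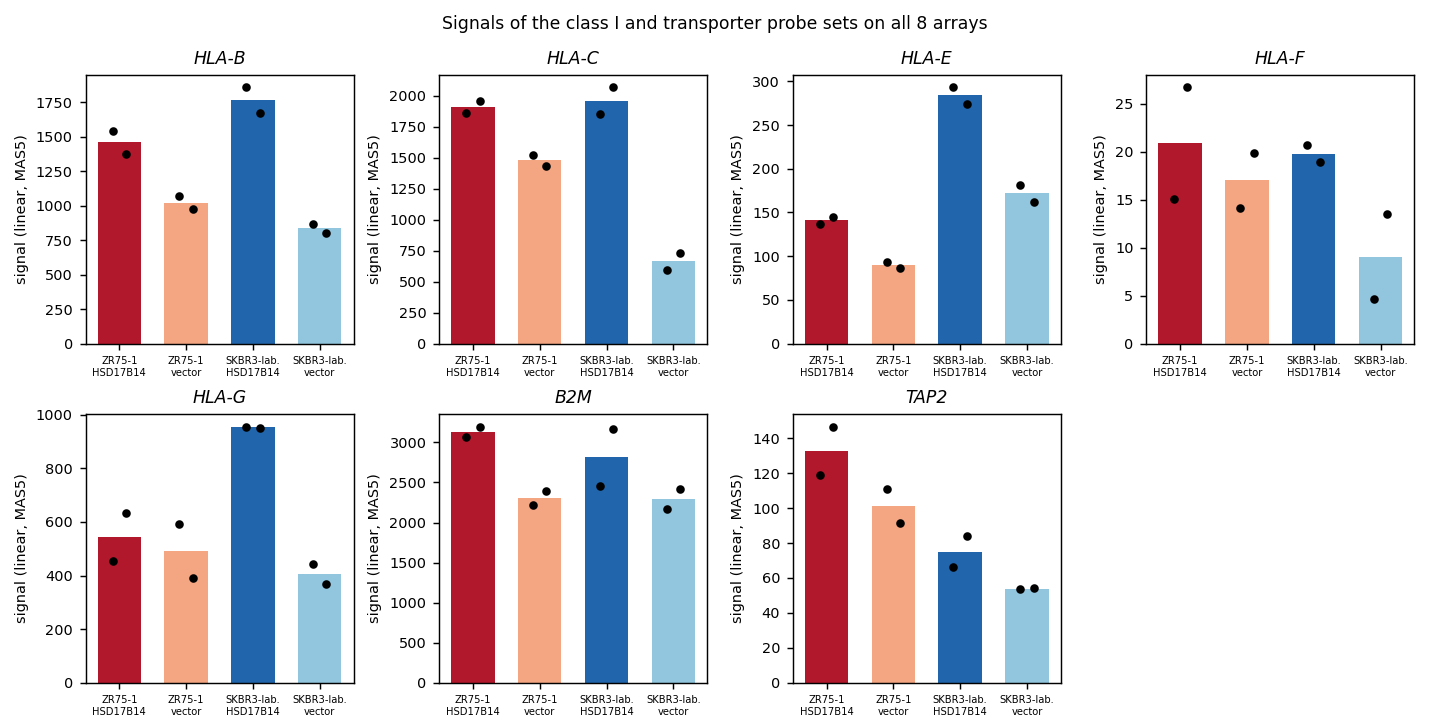
Linear MAS5 signal (y axis, each panel on its own scale from 0) of the 7 probe sets by group; points are single arrays and bars the mean of 2 arrays. The SKBR3-labelled arrays with HSD17B14 stand above those with vector in every panel, most for HLA-C (1849.5 and 2068.4 against 594.5 and 735.1).

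The rise in SKBR3-labelled cells was measured at either spike-in level. Comparing 1 array with 1 array, HLA-C differed by 1.64 where the spike-ins were low and by 1.49 where they were high, HLA-B by 1.10 and 1.06, and HLA-G by 1.11 and 1.37 (log2, HSD17B14 minus vector). The actin 3′/5′ ratio was 2.28 and 3.09 with HSD17B14, against 3.6 and 3 with vector. With the log2 of that ratio in the fit, HLA-C was still called (log2 change 1.55, adjusted p = 0.00656), whereas HLA-B (1.05, adjusted p = 0.0517) and HLA-G (1.28, adjusted p = 0.151) were not. With a prior spread that does not depend on signal level, none of the 3 was called (limma adjusted p = 0.0602 for HLA-C, 0.127 for HLA-B and 0.34 for HLA-G). HLA-G also lost its call when either HSD17B14 array was left out (0.114 without replicate 1 and 0.101 without replicate 2) or vector replicate 2 (0.077), or where signals under 17.6 were raised to it (0.172).

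In ZR75-1 cells no member passed the test, although 5 of the 7 were higher with the plasmid on both arrays. These 0 of 7 calls stand against 0.736% of all tested probe sets called higher and 0.784% called lower there. At an unadjusted limma p under 0.05, 4 members were higher (HLA-B, HLA-C, HLA-E and B2M), against 8.35% of tested probe sets. The 5 members higher without overlap stand against 20.7% of probe sets, and the same 5 were higher without overlap in both lines, against 4.82%.

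HLA-E read 136.6 and 145.4 with HSD17B14, against 93 and 86.4 with vector. The arrays were well apart, and the log2 change of 0.65 ± 0.17 was the largest of the members here (limma adjusted p = 0.0746). HLA-B read 1545.7 and 1374.4 with HSD17B14, against 1069.3 and 976.7 with vector, a log2 change of 0.51 ± 0.14 (limma adjusted p = 0.0828).

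HLA-C read 1857.6 and 1959.7 with HSD17B14, against 1519.9 and 1437 with vector. Its log2 change was 0.37 ± 0.15 (limma adjusted p = 0.217), with a 95% interval of 0.04 to 0.69. B2M read 3066.4 and 3195.9 with HSD17B14, against 2221.5 and 2389.8 with vector, and its change of 0.44 ± 0.16 (limma adjusted p = 0.181) had no overlap of arrays.

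TAP2 read 118.7 and 146.6 with HSD17B14, against 110.7 and 91.3 with vector, a log2 change of 0.39 ± 0.24 (limma adjusted p = 0.42). HLA-G read 453.2 and 634.8 with HSD17B14, against 593.5 and 390.7 with vector, so the groups overlapped. HLA-F read 15.1 and 26.7 with HSD17B14, against 14.1 and 19.9 with vector, and overlapped as well. Their log2 changes were 0.16 ± 0.21 for HLA-G (limma adjusted p = 0.767) and 0.26 ± 0.72 for HLA-F (limma adjusted p = 0.894).

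The members' median log2 change in ZR75-1 was 0.39, against -0.044 over all tested probe sets. Centring each array on its median moves both alike, to 0.16 over all tested probe sets and to 0.60 for TAP2, the median member. The actin 3′/5′ ratio there separated the plasmids, at 2.83 and 2.66 with HSD17B14, against 2.03 and 2.02 with vector. The GAPDH 3′/5′ ratio separated them the other way, at 0.896 and 0.883 with HSD17B14, against 1.084 and 1.039 with vector. With the actin ratio in the fit the HLA-B and HLA-E changes were 0.54 and 0.66 (limma adjusted p = 0.587 for each). No fit held the GAPDH ratio.

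**Figure D2:**
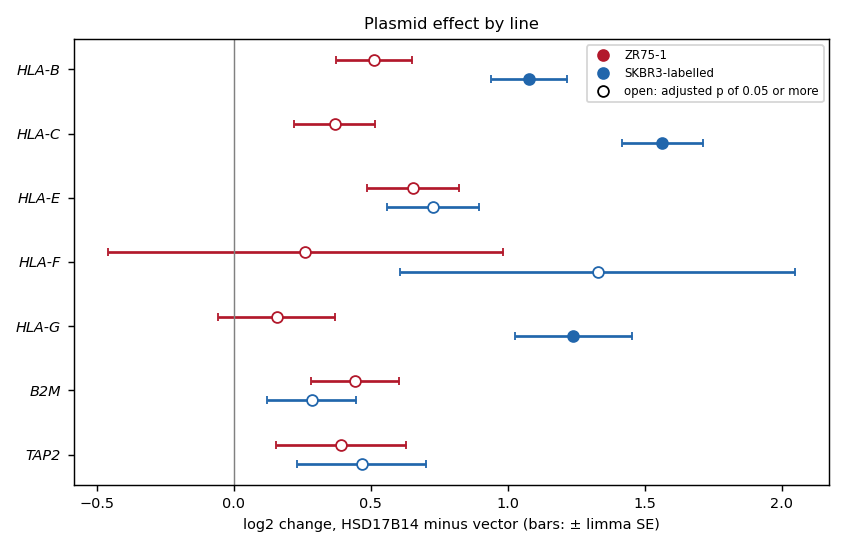
Log2 change, HSD17B14 minus vector (x axis), with its limma SE for each member, in ZR75-1 (red, upper point of each pair) and SKBR3-labelled cells (blue, lower point). Filled points passed the adjusted test, which are HLA-B, HLA-C and HLA-G in SKBR3-labelled cells only; all 14 points lie above 0.

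Averaged over the lines, with each line weighted equally, 4 members rose with the plasmid, against 1.22% of tested probe sets called higher. These were HLA-C (log2 change 0.97 ± 0.10, limma adjusted p = 0.000457), HLA-B (0.80 ± 0.10, limma adjusted p = 0.00108), HLA-E (0.69 ± 0.12, limma adjusted p = 0.0107) and HLA-G (0.70 ± 0.15, limma adjusted p = 0.0469). HLA-E thus passed over both lines but, at this setting, in neither line alone, with changes of 0.65 and 0.73 in the lines and a difference, ZR75-1 minus SKBR3-labelled, of -0.07 ± 0.24 (95% interval -0.59 to 0.45). B2M (0.36 ± 0.11, limma adjusted p = 0.173), TAP2 (0.43 ± 0.17, limma adjusted p = 0.269) and HLA-F (0.80 ± 0.51, limma adjusted p = 0.524) did not pass. HLA-E lost its call without ZR75-1 HSD17B14 replicate 2 (adjusted p = 0.0511), SKBR3 HSD17B14 replicate 1 (0.102) or SKBR3 HSD17B14 replicate 2 (0.0687), and HLA-G lost its call on leaving out any of 6 of the 8 arrays (0.0769 to 0.148) and in 5 of 9 other settings (0.0714 to 0.313). With the prior that does not depend on signal level, none of the 4 was called (limma adjusted p = 0.0729 for HLA-C, 0.0903 for HLA-B, 0.117 for HLA-E and 0.313 for HLA-G).

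HLA-C was the only member whose difference in plasmid response between the lines passed the test, and 0.56% of tested probe sets were called lower in this contrast. Its effect in ZR75-1 was smaller by 1.20 ± 0.21 on the log2 scale (ZR75-1 minus SKBR3-labelled -1.20, limma adjusted p = 0.0335, 95% interval -1.66 to -0.74). For HLA-G the difference was -1.08 ± 0.30 (limma adjusted p = 0.159, interval -1.74 to -0.42), and for HLA-B -0.57 ± 0.20 (limma adjusted p = 0.271, interval -1 to -0.13). These intervals, which are not adjusted for the number of tests, lie below 0. TAP2 (-0.07 ± 0.33, interval -0.81 to 0.66) and B2M (0.16 ± 0.23, interval -0.34 to 0.66) showed no difference past the test, with intervals that leave room for effects of moderate size in either direction. The HLA-C call was lost in 5 of 9 other settings and when any of 6 of the 8 arrays was left out (adjusted p = 0.0585 to 0.203), while its value stayed between -1.35 and -1.04.

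Between the lines, HLA-C and TAP2 were higher and HLA-E lower in ZR75-1 with vector, and TAP2 was higher and HLA-E and HLA-G lower in ZR75-1 with HSD17B14. With vector, HLA-C was higher in ZR75-1 (1519.9 and 1437) than in SKBR3-labelled cells (594.5 and 735.1), by 1.16 ± 0.15 on the log2 scale (limma adjusted p = 7.71e-05). With HSD17B14 the line difference was -0.04 ± 0.15 (limma adjusted p = 0.889, 95% interval -0.36 to 0.29), and the arrays overlapped. In order of mean signal HLA-C was highest in SKBR3-labelled cells with HSD17B14, then ZR75-1 with HSD17B14, ZR75-1 with vector and SKBR3-labelled cells with vector, and of these neighbours the last pair alone differed past the test.

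HLA-E and TAP2 differed between the lines with either plasmid. HLA-E was lower in ZR75-1, by log2 differences of -1.01 ± 0.17 with HSD17B14 (limma adjusted p = 0.000657) and -0.94 ± 0.17 with vector (limma adjusted p = 0.000922). TAP2 was higher in ZR75-1, by 0.82 ± 0.24 with HSD17B14 (limma adjusted p = 0.0188) and 0.90 ± 0.24 with vector (limma adjusted p = 0.00995). Its order ran ZR75-1 with HSD17B14, ZR75-1 with vector, SKBR3-labelled with HSD17B14, SKBR3-labelled with vector, that of HLA-E SKBR3-labelled with HSD17B14, SKBR3-labelled with vector, ZR75-1 with HSD17B14, ZR75-1 with vector. In both orders neighbours that share a line did not differ past the test, and the pair in the middle, which differs in line and plasmid, was not tested.

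HLA-G was lower in ZR75-1 with HSD17B14, with a log2 difference of -0.83 ± 0.21 (limma adjusted p = 0.0103), while with vector the arrays of the lines overlapped (0.26 ± 0.21, limma adjusted p = 0.378). HLA-B had the same order of groups as HLA-C, but no neighbouring groups in it differed past the test (limma adjusted p = 0.159, 0.0828 and 0.122 from the top). B2M showed no line difference past the test, at 0.17 ± 0.16 with HSD17B14 (limma adjusted p = 0.48) and 0.01 ± 0.16 with vector (limma adjusted p = 0.972, interval -0.35 to 0.36). HLA-F differed by 0.02 ± 0.72 with HSD17B14 and 1.09 ± 0.72 with vector, neither past the test.

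These line calls are 1 member higher and 2 lower with HSD17B14, where 15.1% and 18.1% of tested probe sets were called, and 2 higher and 1 lower with vector, where 19.6% and 20.7% were called. The members' share of calls between lines is therefore near the background. Class I genes vary in sequence between people and lines, so a line difference of a heavy chain cannot be told apart from a difference in how well its probes match. With the actin ratio in the fit none of the line differences with vector was called (adjusted p = 0.0783 for HLA-C, 0.192 for HLA-E and 0.217 for TAP2). Without ZR75-1 vector replicate 1, TAP2 lost its call with vector (adjusted p = 0.0626), with HSD17B14 the TAP2 call was lost without ZR75-1 HSD17B14 replicate 2 (0.135) or SKBR3 HSD17B14 replicate 1 (0.181), and the HLA-G call without ZR75-1 HSD17B14 replicate 1 (0.113), SKBR3 HSD17B14 replicate 1 (0.0533) or replicate 2 (0.052), with signals raised to 17.6 (0.0552) or with the other prior (0.0913).

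**Figure D3:**
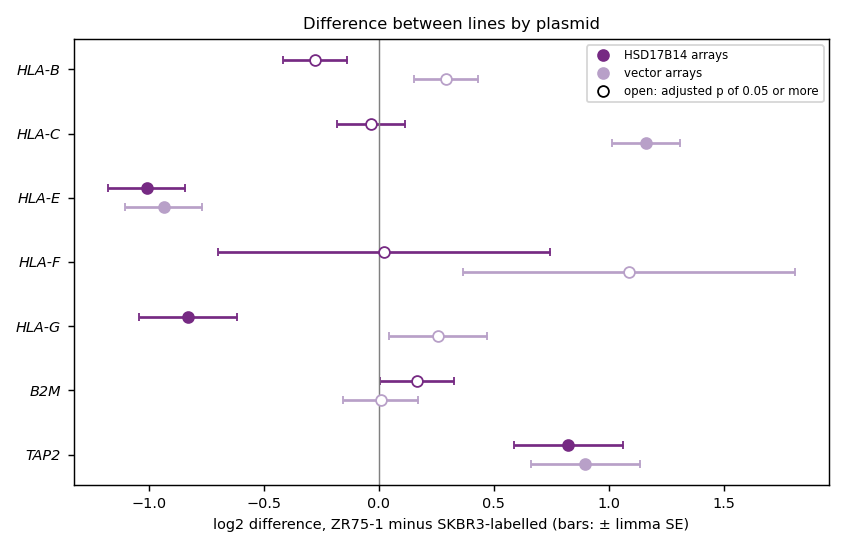
Log2 difference between lines, ZR75-1 minus SKBR3-labelled (x axis), with its limma SE for each member, on HSD17B14 arrays (dark, upper) and vector arrays (pale, lower). HLA-E and TAP2 keep their side of 0 and stay filled (past the test) with either plasmid, while HLA-C lies at 1.16 with vector and at -0.04 with HSD17B14.

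PSMB9 and PSMB8 encode catalytic subunits of the immunoproteasome, which replace constitutive proteasome subunits and favour peptides that class I binds. These genes rose in SKBR3-labelled cells, as 2 of 5 tested from a list of 6, against the 0.944% of all probe sets called higher there. The list, like the members, was chosen with earlier results of these data known, so the share is given as a description. PSMB9 read 419.1 and 394.2 with HSD17B14, against 106.6 and 93.8 with vector (log2 change 2.02 ± 0.19, limma adjusted p = 0.000129). PSMB8 read 411.3 and 416 with HSD17B14, against 141.8 and 143.8 with vector (1.53 ± 0.16, limma adjusted p = 0.000268). Both arrays with the plasmid were far above both with vector for these genes.

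PSMB10, the remaining inducible catalytic subunit, had a change of 1.05 ± 0.32 (limma adjusted p = 0.282), and PSME1, a subunit of the PA28 activator, one of 0.53 ± 0.13 (limma adjusted p = 0.11). PSME3, also on the list, went the other way, lower without overlap of arrays in each line. Its changes were -0.378 ± 0.339 in SKBR3-labelled cells (limma adjusted p = 0.896) and -0.395 ± 0.339 in ZR75-1 (limma adjusted p = 0.586). The list's median log2 change was 1.05 in SKBR3-labelled cells, against -0.011 over all tested probe sets. In ZR75-1 none of the 5 passed, with 3 higher before adjustment (limma p under 0.05, against 8.35% of all probe sets), a median of 0.48 and values of 0.60 ± 0.19 for PSMB9 (limma adjusted p = 0.114) and 0.42 ± 0.16 for PSMB8 (limma adjusted p = 0.205). Over both lines PSMB9, PSMB8 and PSME1 (0.51 ± 0.09, limma adjusted p = 0.0152) rose, where 1.22% of all tested probe sets were called higher. PSMB9 and PSMB8 were each called there in 8 of 9 other settings (limma adjusted p up to 0.0682 and 0.0795). PSME1 lost its call without any of 4 of the 8 arrays. It also did so with the actin ratio in the fit (limma adjusted p = 0.057) or with the other prior (0.208). The PSMB9 effect was smaller in ZR75-1 by 1.42 ± 0.26 (difference -1.42, limma adjusted p = 0.0413), where 0.56% of all tested probe sets were called lower. With the prior that does not depend on signal level, neither PSMB9 (adjusted p = 0.0602) nor PSMB8 (0.0613) was called in SKBR3-labelled cells.

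The constitutive core of the proteasome, the general protein-degrading barrel, had 12 of 14 listed genes tested and none called in either line. Before adjustment (limma p under 0.05), 4 were higher in ZR75-1, where 8.35% of all probe sets were higher and 9.61% lower, and 1 was higher and 1 lower in SKBR3-labelled cells, where 4.96% were higher and 3.82% lower. Its medians were 0.21 in ZR75-1 and 0.03 in SKBR3-labelled cells. The largest by test statistic were PSMA4 in ZR75-1 (0.60 ± 0.15, limma adjusted p = 0.0719) and PSMB4 in SKBR3-labelled cells (-0.37 ± 0.14, limma adjusted p = 0.481).

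Of the genes that load peptide onto class I and fold it, 6 of 10 listed were tested and none was called in either line. By the unadjusted p, 1 was higher and 1 lower in ZR75-1, where 8.35% and 9.61% of all probe sets were. In SKBR3-labelled cells 2 were higher, where 4.96% of all probe sets were. TAPBP, which encodes tapasin, the bridge between TAP and the heavy chain, lay on opposite sides in the lines. It read 131.1 and 76.9 in ZR75-1 with HSD17B14, against 190.3 and 166.7 with vector (-0.83 ± 0.24, limma adjusted p = 0.1), and 164 and 152.7 in SKBR3-labelled cells with HSD17B14, against 90.9 and 92.9 with vector (0.78 ± 0.24, limma adjusted p = 0.282). Neither pair of groups overlapped, and the difference of the effects was -1.61 ± 0.34 (limma adjusted p = 0.0687). PDIA3, the thiol oxidoreductase of the loading complex, changed by 0.79 ± 0.26 in SKBR3-labelled cells (limma adjusted p = 0.35) and by 0.23 ± 0.26 in ZR75-1 (limma adjusted p = 0.699).

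Among transcription factors known to act on class I promoters, 13 of 17 listed were tested. Of these IRF7, an interferon regulatory factor, rose in SKBR3-labelled cells, where 0.944% of all tested probe sets were called higher. It read 546.9 and 550.1 with HSD17B14, against 334.6 and 229.5 with vector (0.99 ± 0.18, limma adjusted p = 0.0209). In ZR75-1 it read 195 and 186.6 with HSD17B14, against 256 and 230.4 with vector (-0.35 ± 0.18, limma adjusted p = 0.344). The arrays lay on opposite sides in the 2 lines, and the difference of the effects was -1.33 ± 0.26 (limma adjusted p = 0.0444). Of all tested probe sets, 0.56% were called lower in that contrast.

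IRF9, the DNA-binding subunit of ISGF3, had 0.64 ± 0.15 in SKBR3-labelled cells (limma adjusted p = 0.101) and IRF1 0.66 ± 0.24 (limma adjusted p = 0.423). In ZR75-1 IRF9 had -0.09 ± 0.15 and IRF1 -0.34 ± 0.24, neither past the test. NFYC had the largest test statistic there, at 19.4 and 17.9 with HSD17B14, against 35.3 and 44.9 with vector (-1.095 ± 0.368, limma adjusted p = 0.146). By the unadjusted p, 0 were higher and 1 lower in ZR75-1, where 8.35% and 9.61% of all probe sets were. In SKBR3-labelled cells 3 were higher, where 4.96% of all probe sets were. The list's median was -0.14 in ZR75-1 and 0.28 in SKBR3-labelled cells. IRF7 lost its call in SKBR3-labelled cells without HSD17B14 replicate 1 (adjusted p = 0.199) or 2 (0.202) or vector replicate 2 (0.0617), with signals raised to 17.6 (0.123), with the actin ratio in the fit (0.086) and with the other prior (0.34).

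The receptors and kinases that carry interferon signals, with the phosphatase and suppressors that damp them, had 8 of 10 listed genes tested and none called in either line. Without adjustment 2 were higher in ZR75-1 and 1 in SKBR3-labelled cells, against 8.35% and 4.96% of all probe sets. IFNGR1, a chain of the interferon-gamma receptor, read 68.4 and 82.4 in ZR75-1 with HSD17B14, against 37.4 and 20.3 with vector (1.45 ± 0.37, limma adjusted p = 0.0734). SOCS1, an inhibitor of JAK kinases, read 10 and 14.5 in SKBR3-labelled cells with HSD17B14, against 2 and 1.8 with vector (limma adjusted p = 0.375), all under 17.6.

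Class I-like genes, whose products resemble heavy chains but serve other roles, had 9 of 13 listed tested and none called in either line. In each line 1 was higher by the unadjusted p, against 8.35% of all probe sets in ZR75-1 and 4.96% in SKBR3-labelled cells. MICB, a ligand of the natural killer receptor NKG2D, had 0.76 ± 0.25 in SKBR3-labelled cells (limma adjusted p = 0.353) and -0.31 ± 0.25 in ZR75-1 (limma adjusted p = 0.564). ULBP2, another NKG2D ligand, read 40.2 and 49.2 in ZR75-1 with HSD17B14, against 24.1 and 10.5 with vector (limma adjusted p = 0.161). The lower vector value lies below the 40th percentile of its array, so no size of change is given.

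Class II genes, which present peptides from outside the cell and are typical of professional antigen-presenting cells, had 8 of 14 listed tested and none called in either line. Before adjustment (limma p under 0.05), 1 was higher in ZR75-1, where 8.35% of all probe sets were. In SKBR3-labelled cells 3 were higher and 1 lower, where 4.96% of all probe sets were higher and 3.82% lower. HLA-DRA read 34.4 and 29.6 in SKBR3-labelled cells with HSD17B14, against 3.6 and 5.1 with vector (limma adjusted p = 0.135), where the vector values lie below the 40th percentile of their arrays and no size of change is given. HLA-DRB1 read 67.3 and 99.9 in ZR75-1 with HSD17B14, against 17.7 and 38.5 with vector (1.65 ± 0.41, limma adjusted p = 0.0699). The HLA-DRB1 probe set also has the suffix _x_at, so its signal cannot be assigned to that gene alone. CIITA went the other way in SKBR3-labelled cells, at 1.8 and 3.3 with HSD17B14, against 27.9 and 15.9 with vector (limma adjusted p = 0.459). Its values with HSD17B14 lie below the 40th percentile of their arrays, so no size of change is given. The summed signal of 5 class II markers on the table, of 6 fixed for antigen-presenting cells, was 189.1 to 207 in SKBR3-labelled cells with HSD17B14, against 82 to 121 with vector, and 109.5 to 132.1 in ZR75-1 with HSD17B14, against 110.2 to 115.9 with vector. It was thus higher where the heavy chains rose, and its part in those results was not tested. PTPRC, the leukocyte marker CD45, stayed between 0.9 and 16.2 on all 8 arrays.

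Other ABC transporters, relatives of TAP2 that carry other cargo, had 11 of 15 listed tested and none called in either line, with medians of -0.04 in ZR75-1 and -0.08 in SKBR3-labelled cells. By the unadjusted p, 2 were higher and 1 lower in ZR75-1, where 8.35% and 9.61% of all probe sets were. In SKBR3-labelled cells 0 were higher or lower, where 4.96% and 3.82% of all probe sets were. TAP2's own changes, 0.39 and 0.47, were not past the test either.

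**Figure D4:**
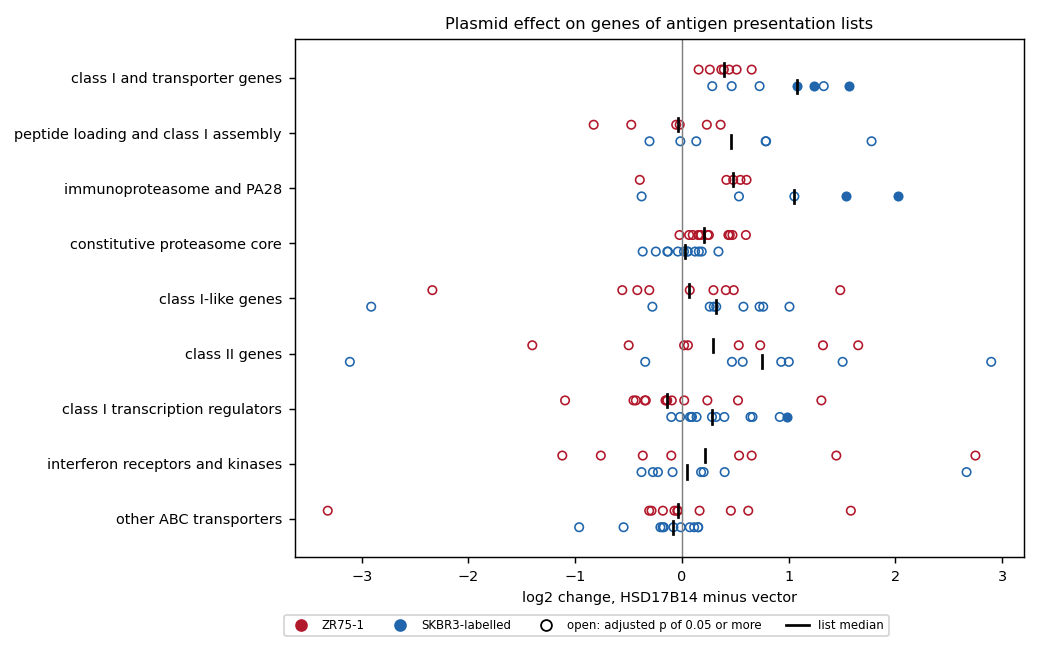
Log2 change, HSD17B14 minus vector (x axis), of every tested gene of each list (rows), with ZR75-1 (red) above SKBR3-labelled cells (blue) in each row; filled points passed the adjusted test and black bars are list medians. Filled points are HLA-B, HLA-C, HLA-G, PSMB8, PSMB9 and IRF7 in SKBR3-labelled cells.

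The genes with the pattern most like the members' were found by centring each probe set on its mean log2 signal and taking the smallest root-mean-square difference over the 8 arrays, among 5545 genes. The 5 heavy chains and B2M, averaged, had a centred level of 0.51 and 0.53 in SKBR3-labelled cells with HSD17B14, against -0.64 and -0.39 with vector, and of 0.08 and 0.31 in ZR75-1 with HSD17B14, against -0.18 and -0.23 with vector. Since nearness was measured on the same 8 arrays, the plasmid values of the nearest genes follow in part from that choice and are given as a description. The nearest genes were IFIT1 (difference 0.108), MYL12B (0.139), LAP3 (0.172), EIF2AK2 (0.173) and PCYT1A (0.182), where the median over all genes was 0.747. IFIT1, which binds viral RNA ends, read 2102.5 and 2446.8 in SKBR3-labelled cells with HSD17B14, against 1045.4 and 1210.3 with vector (log2 change 1.01 ± 0.15), and 1887.8 and 2207.2 in ZR75-1 with HSD17B14, against 1527.8 and 1628.4 with vector (0.37 ± 0.15).

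EIF2AK2, the kinase PKR that senses double-stranded RNA, had a log2 change of 1.28 ± 0.17 in SKBR3-labelled cells and 0.28 ± 0.17 in ZR75-1. In SKBR3-labelled cells the aminopeptidase gene LAP3 had 1.06 ± 0.15 and the myosin light chain gene MYL12B 1.05 ± 0.16. PCYT1A, an enzyme of phosphatidylcholine synthesis, had 0.90 ± 0.38 there and did not pass the test (limma adjusted p = 0.527). Its signals were low, at 46.1 and 62.1 with HSD17B14, against 22.8 and 36.1 with vector. TAP2, whose pattern is set mainly by the line, was nearest to VPS4B (difference 0.112), TOR3A (0.114), RAP2C (0.142), GYG1 (0.159) and GOLGA7 (0.161), against a median of 0.81 over all genes.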

How the data were processed

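Total RNA (5 ug, biotin-labelled) of 8 samples was measured on Affymetrix arrays, 2 per group. The deposited values are intensities on a linear scale, 1 per probe set and array, which the authors computed in MAS5 (named in the submitters' processing notes); the version is not given in the sources used here. The values show a common scaling: the mean after removing the highest and lowest 2% is 100.1 on every array. Array medians differed by 0.36 (log2), so this scaling was kept. The number of arrays limits the precision.

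The table holds 8793 probe sets; 47 controls were left out. Of the rest, 7840 have 1 gene symbol in the platform annotation, 388 several and 518 none here. Log2 was taken after setting values below 1 (2.41% to 7.13% per array) to 1. Probe sets above their array's 40th percentile on at least 2 arrays (6251) were fitted with limma 3.58.1 in R 4.3.3 (4 group means; eBayes with trend; degrees of freedom 4 residual, 7.39 prior), with Benjamini-Hochberg adjustment over all of them and a call at adjusted p under 0.05. The procedure was also run on simulated data. Their spreads were shuffled over probe sets, so that run cannot judge the prior that depends on signal level. Figures were drawn with matplotlib 3.10.9 and promoters aligned with Biopython 1.88.

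All members are named with every array's value, and so are the 5 genes nearest in pattern to each profile. Of the lists with genes named, those with the largest test statistic in a contrast described are given, some with their values in the other line. Members and lists were chosen with earlier results of these data known. Alternatives were a common floor of 17.6, a pseudocount of 32, no filter, median centring, quantile normalization, a prior not dependent on the mean, a replicate block, each line alone, spike-in level, actin ratio and leaving out each array. Same-numbered arrays did not deviate together (correlations of -0.044 to 0.059).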

Additional observations from a re-analysis of the deposited data

Results flagged for a closer look

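For 3 genes, out of the members and all lists, the plasmid's effect differed between the lines by the test of the difference itself. Each difference was negative, and for IRF7 the effects in the lines lay on opposite sides. Over all 6251 tested probe sets, 35 (0.56%) were called lower and 4 higher in this contrast. Members and lists were chosen with earlier results of these data known, so the count is a description. For HLA-C the difference (ZR75-1 minus SKBR3-labelled, log2) was -1.20 ± 0.21 (limma adjusted p = 0.0335), from 0.37 ± 0.15 in ZR75-1 and 1.56 ± 0.15 in SKBR3-labelled cells. For PSMB9 it was -1.42 ± 0.26 (limma adjusted p = 0.0413), from 0.60 ± 0.19 in ZR75-1 and 2.02 ± 0.19 in SKBR3-labelled cells. For IRF7 it was -1.33 ± 0.26 (limma adjusted p = 0.0444), from -0.35 ± 0.18 in ZR75-1 and 0.99 ± 0.18 in SKBR3-labelled cells. HSD17B14 itself read 107.5 and 135.3 in ZR75-1 and 650.7 and 743.6 in SKBR3-labelled cells with its plasmid, and the part of that level in these differences was not tested. The HLA-C difference stayed called in 4 of 9 other settings and 2 of 8 with an array left out, and those of PSMB9 and IRF7 in 2 of 9 and 1 of 8 each.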

How the results depend on the processing

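The count of members called in ZR75-1 was 0 under all 10 other settings and with any array left out. In SKBR3-labelled cells the 3 calls became 0 with a prior not dependent on the mean and 1 with the actin ratio as a covariate, and 2 to 3 with arrays left out in turn. The 4 calls over both lines became 0 with that prior and 2 to 4 with arrays left out. The 1 call for the difference of effects became 0 with median centring, no filter, the common floor, that prior or the actin ratio, and 0 to 1 with arrays left out. The 3 line calls with vector became 0 with the actin ratio and 2 to 3 with arrays left out, and the 3 with HSD17B14 were 1 to 3 with arrays left out, 1 of them without SKBR3 HSD17B14 replicate 1. Beyond fewer arrays, the cause of these losses was not tested. In ZR75-1 the lists of class II genes, constitutive proteasome core and interferon receptors had 0 to 1 call each over the 10 other settings.

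With the replicate number as a block, 63 probe sets were called higher and 4 lower in SKBR3-labelled cells, and 52 higher and 52 lower in ZR75-1; the numbers are not shown to pair the arrays, and the count of members called stayed the same in every comparison.

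Signs turned only for changes that had not passed the test. HLA-F in ZR75-1 was -0.11 with spike-in level blocked. For the difference of effects, HLA-E was 0.018 (quantile) and 0.055 (median centring), TAP2 0.057 and 0.056 under these, B2M -0.03 (quantile) and -0.15 (actin), and HLA-F 0.044 (common floor) and 0.44 (actin). Between lines with vector, HLA-F was -0.33 (actin) and B2M -0.085 (median centring); with HSD17B14, HLA-C was 0.001 (median centring) and HLA-F -0.027 (quantile). With arrays left out, HLA-F in ZR75-1 ran from -0.15 to 0.67 and HLA-G from -0.15 to 0.46; the differences of effects from -0.16 to 0.011 (HLA-E), -0.027 to 0.34 (B2M) and -0.25 to 0.099 (TAP2); with vector from -0.047 to 0.56 (HLA-G) and -0.072 to 0.089 (B2M); with HSD17B14 from -0.12 to 0.045 (HLA-C), -0.39 to 0.43 (HLA-F) and -0.019 to 0.35 (B2M). HLA-F lies near background, which limits its precision.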
